A study of Drosophila melanogaster with 9 samples.

Results

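The genes described here encode subunits of the vacuolar proton pump (V-ATPase) of Drosophila melanogaster, measured in the midguts of adult virgin females. They were chosen by name: every gene whose FlyBase symbol starts with Vha, paralogs and the accessory subunit genes included. The reference name table held 33 such symbols, of which 28 matched an identifier among the 15682 gene identifiers of the count tables. The identifiers of Vha68-1, Vha44, Vha26, Vha13 and VhaAC39-1 did not match, so these 5 genes were not analysed here, and subunits C, E and G have no value below. Of the 28 genes, 12 were read as common subunit genes and 16 as tissue-limited paralogs, from what is known of where each is used in the fly.

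The V-ATPase is a rotary pump that acidifies endosomes, lysosomes and secretory vesicles in all cells, and in some epithelia it sits in the plasma membrane and moves protons out of the cell. Its cytoplasmic sector, V1, breaks down ATP, and its membrane sector, V0, carries the protons. In the fly gut it is known for the acid secreted by the copper cells of the middle midgut, while in the Malpighian tubule it drives fluid secretion.

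RNA sequencing was performed on 9 libraries in 3 groups of 3. The rescue flies (labelled tra, esg>traF) were tra mutant females that expressed traF, the female form of the gene, under esg, a driver of intestinal progenitor cells. The tra mutant flies were females mutant for transformer (tra), the splicing regulator of female somatic identity, and the control flies were wild-type females. All groups were of w1118 background and labelled 15 days old. They were aged at 18 °C for 3 days, and 10 days at 29 °C followed, which switched on the transgene. Each replicate pooled 30 midguts, the tra alleles are not named in the labels, and the labels do not say whether the control flies carried the driver. Nothing says that replicates came from separate cultures, so the p-values rest on a spread among libraries that may be technical.

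Gene counts per library ranged from 84839470 to 108455374. Reads on tra itself numbered 756, 472 and 294 in the rescue libraries, 1, 2 and 1 in the tra mutant libraries, and 821, 650 and 742 in the control libraries, so the gene was low in each library labelled tra mutant. The first principal component held 38.64% of the variance and separated the control libraries from the other 6, with control replicate 3 farthest out. The defining enterocyte marker Myo31DF averaged 692 ± 24.9 CPM in rescue, 708 ± 46.8 CPM in mutant and 673 ± 61.8 CPM in control midguts (SD, n = 3 each). The copper cell marker lab averaged 18.0 ± 1.23 CPM in rescue, 17.6 ± 2.33 CPM in mutant and 21.4 ± 3.45 CPM in control midguts.

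Levels are in CPM, counts per 1000000 gene counts of a library after TMM scaling. To compare genes of unlike length, a level per kilobase was obtained by dividing the CPM by the exon length of the gene. The Vha genes together took 1.28%, 1.46% and 1.52% of the gene counts in the rescue libraries, 1.09%, 1.42% and 1.25% in the mutant libraries, and 1.45%, 1.54% and 1.49% in the control libraries. Of the 28 genes, 19 passed the filter on low counts and were tested among 10088 genes, namely the 12 common genes and 7 tissue-limited ones.

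Common subunit genes of the catalytic sector were among the abundant transcripts of the midgut, and none of them passed the test in any comparison. Vha68-2, which encodes subunit A with the catalytic site, had 1789, 2260 and 2492 CPM in rescue, 2097, 2311 and 1899 CPM in mutant and 2259, 2687 and 2103 CPM in control libraries. Vha55 (subunit B, the partner of A in the ring that binds ATP) had 1355, 1785 and 1900 CPM in rescue, 1416, 1760 and 1457 CPM in mutant and 1836, 2241 and 1759 CPM in control libraries. In both genes the mutant values overlapped the control values, and in Vha55 only by 1 library on each side. Vha36-1 encodes subunit D, the axle of the rotor, and Vha14-1 encodes subunit F, which sits beside it on the central stalk. Vha36-1 had 342, 432 and 463 CPM in rescue, 371, 434 and 357 CPM in mutant and 494, 577 and 489 CPM in control libraries. Vha14-1 had 208, 264 and 259 CPM in rescue, 207, 233 and 213 CPM in mutant and 276, 312 and 271 CPM in control libraries. In each of these 2 genes every mutant and every rescue library lay below every control library. VhaSFD, the gene of the regulatory subunit H, had 440, 577 and 642 CPM in rescue, 494, 571 and 469 CPM in mutant and 628, 746 and 602 CPM in control libraries. Its mutant libraries lay below the control libraries, and its rescue libraries overlapped them.

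In the membrane sector, Vha16-1 was the most abundant Vha gene. It encodes subunit c, the proteolipid that is repeated around the proton-carrying ring, and had 4856, 5831 and 5908 CPM in rescue, 3386, 5708 and 4439 CPM in mutant and 4795, 6290 and 5125 CPM in control libraries, with all groups overlapping. VhaPPA1-1, for subunit c'' of the same ring, had 399, 526 and 554 CPM in rescue, 443, 530 and 443 CPM in mutant and 535, 668 and 546 CPM in control libraries. VhaM9.7-b, for the small membrane subunit e, had 247, 310 and 342 CPM in rescue, 226, 316 and 263 CPM in mutant and 358, 396 and 383 CPM in control libraries. The mutant libraries lay below the control libraries in both genes, and the rescue libraries did so in VhaM9.7-b. VhaAC45, an accessory membrane protein of the pump, had 867, 1056 and 1114 CPM in rescue, 825, 998 and 900 CPM in mutant and 1129, 1323 and 1096 CPM in control libraries. Here too the mutant libraries lay below the control libraries, while rescue replicate 3 overlapped them. VhaM9.7-a was grouped with the common genes by its family, but the data went against that, since its 0.457 to 0.937 CPM over the 9 libraries placed it among the barely detected genes. Its paralog VhaM9.7-c, read as tissue-limited, had 19.8, 21.5 and 19.1 CPM in rescue, 14.2, 17.9 and 19.8 CPM in mutant and 19.3, 17.6 and 17.9 CPM in control libraries.

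Per kilobase, the mean level over the 9 libraries was 1673 for Vha16-1, 801 for Vha68-2, 619 for Vha55, 514 for VhaAC45 and 413 for Vha36-1. VhaPPA1-1 followed at 382, Vha14-1 at 378, VhaM9.7-b at 260 and VhaSFD at 203 CPM per kilobase. By this measure Vha16-1 ranked 47 and VhaSFD 437 among 9682 tested genes with a length. This order leaves out the a-subunit genes, given below, and the genes not analysed here, such as those of subunits C, E and G. Among the genes listed, the repeated proteolipid came first and the A and B subunits of the hexamer next. VhaPPA1-1 and Vha14-1 were too close to be told apart. Exon lengths came from a later annotation than that of the counts, so the levels per kilobase are approximate.

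**Figure D1:**
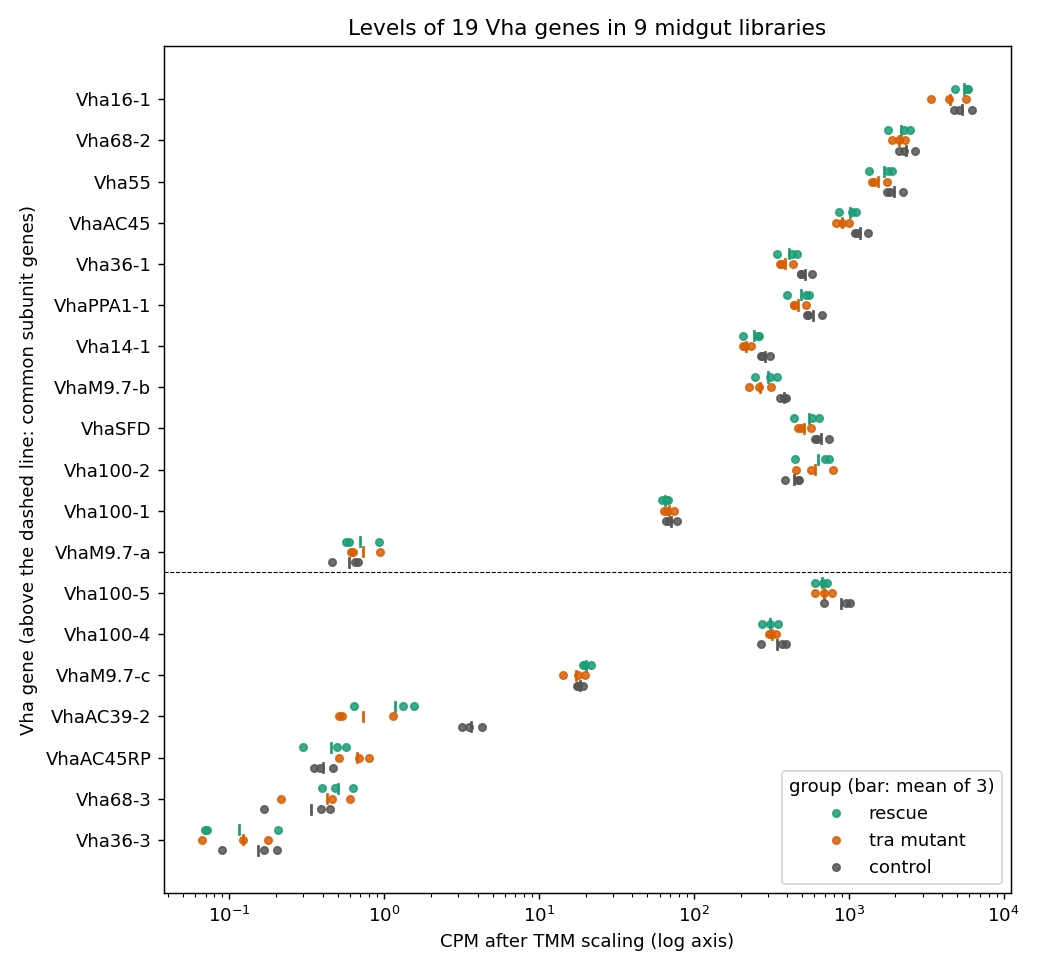
CPM after TMM scaling (log axis) of the 19 tested Vha genes, with 1 point per library and a bar at the mean of 3 for the rescue, tra mutant and control groups. Levels span Vha16-1 at up to 6290 CPM down to Vha36-3 at under 1 CPM, and the groups of VhaAC39-2 stand apart from control, with 3.18 CPM in the lowest control library and 1.55 CPM in the highest of the others.

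The a subunit, which forms the proton path beside the ring and sets where the pump is placed in the cell, was represented by 4 expressed genes. Vha100-5, although read as tissue-limited, had the highest mean level per kilobase of them over the 9 libraries, 257 CPM per kilobase against 174 for Vha100-2, and mutant replicate 2 was the only library in which Vha100-2 was higher per kilobase. Vha100-5 had 601, 683 and 726 CPM in rescue, 774, 690 and 608 CPM in mutant and 965, 1021 and 687 CPM in control libraries. Vha100-2, a common gene, had 447, 705 and 749 CPM in rescue, 572, 791 and 457 CPM in mutant and 389, 478 and 467 CPM in control libraries. Among the libraries outside control, rescue replicate 1 and mutant replicate 3 lay within the control range for Vha100-2. Vha100-4, known from the acid-secreting copper cells, had 274, 312 and 349 CPM in rescue, 337, 313 and 303 CPM in mutant and 371, 393 and 272 CPM in control libraries. Vha100-1, the common gene best known from neurons, had 62.1, 66.0 and 68.3 CPM in rescue, 74.8, 66.9 and 63.8 CPM in mutant and 66.1, 77.9 and 68.7 CPM in control libraries. The groups overlapped for Vha100-1 and Vha100-4, while Vha100-3 had no read in any library.

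Since the a genes are alternatives for 1 position in the pump, each was also expressed as a share of their summed level per kilobase, a measure chosen after the levels were seen. Vha100-2 held 29.9%, 37.3% and 36.9% of the sum in rescue, 30.1%, 39.8% and 29.5% in mutant and 19.9%, 22.3% and 28.9% in control libraries. Its share averaged 34.7% in rescue, 33.15% in mutant and 23.7% in control midguts, and all 6 rescue and mutant libraries lay above every control library. Vha100-5 held 44.4%, 39.9% and 39.5% in rescue, 45.0%, 38.3% and 43.4% in mutant and 54.4%, 52.5% and 47.0% in control libraries, with averages of 41.25%, 42.2% and 51.3% in that order, and all 6 rescue and mutant libraries lay below every control library. The two-sided exact permutation test gave p = 0.1 for each of these 4 differences, the smallest value that 3 against 3 libraries can give, and 0.3 after adjustment over the 12 comparisons of 4 genes, so none passed. Shares within a sum are not independent, and the rescue and the mutant were set against the same control libraries. The shares of Vha100-2 differed by 1.54 percentage points and those of Vha100-5 by -0.98 points between rescue and mutant, with overlapping libraries (exact permutation p = 0.9 for each). Vha100-4 held 18.6% to 23.1% over all 9 libraries and Vha100-1 no more than 4.17%. In single-gene tests, Vha100-2 had a log2 fold change of 0.45 ± 0.25 (SE) in mutant against control and 0.51 ± 0.25 in rescue against control, with edgeR adjusted p of 0.296 and 0.214. Vha100-5 had -0.37 ± 0.18 and -0.41 ± 0.18 in the same comparisons, with edgeR adjusted p of 0.255 and 0.182. Vha100-5 overlaps an antisense RNA gene, Vha100-4 overlaps cona and Vha100-1 overlaps Alg13, in each case on the other strand, and the sources used here do not give whether the counting used strand, so their counts may include reads of the partner. Vha100-1, Vha100-2 and Vha100-4 lie on chromosome arm 3R and Vha100-5 on 2L.

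**Figure D2:**
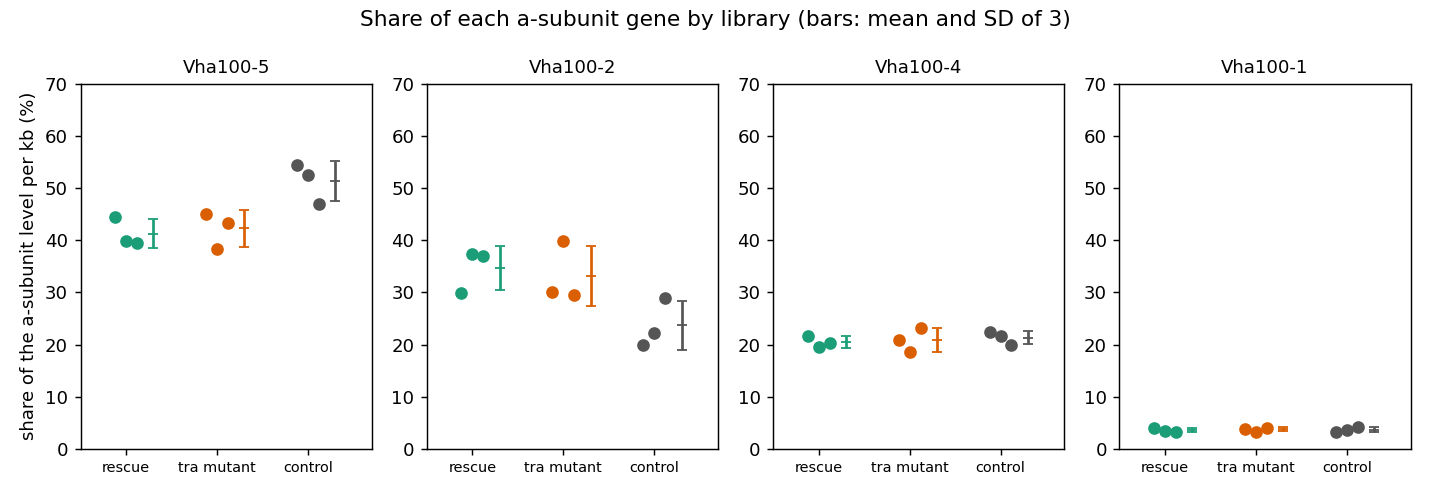
Share of each a-subunit gene (%) in the summed level per kilobase of the a-subunit genes, 1 point per library, with the mean and SD of 3 beside the points. Vha100-5 lies at 47.0% or above in control and at 45.0% or below in the rescue and mutant libraries, Vha100-2 lies the other way round, and Vha100-4 and Vha100-1 overlap between groups.

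Against control, 1 Vha gene of the 19 tested was lower in the tra mutant (edgeR's quasi-likelihood test, Benjamini-Hochberg adjusted p under 0.05), the tissue-limited VhaAC39-2, and none was higher. Over all 10088 genes, 6.67% were called in this comparison, 3.66% higher and 3.01% lower, so 1 of 19 is near the background. None of the 12 common genes passed with edgeR or with DESeq2, while 4 of them had an unadjusted edgeR p under 0.05, all lower, against 12.8% of all genes lower by that rule. These were VhaM9.7-b, with a log2 fold change of -0.50 ± 0.17 (SE; edgeR adjusted p = 0.107), Vha14-1 with -0.39 ± 0.13 (0.112), Vha36-1 with -0.43 ± 0.16 (0.134) and VhaAC45 with -0.38 ± 0.16 (0.184). The log2 fold change was negative for 10 of the 12 and positive for Vha100-2 and VhaM9.7-a, and the 12 had a median of -0.32 in a range of -0.50 to 0.45. All tested genes had a median of -0.03, with 53.5% negative. In 6 of the 12 genes (VhaPPA1-1, VhaM9.7-b, Vha36-1, Vha14-1, VhaSFD and VhaAC45) all mutant libraries lay below all control libraries, against 12.9% of all genes. Read by replicate number, which may pair mutant and control libraries, 9 of the 12 (these 6 with Vha68-2, Vha55 and Vha16-1) were lower in the mutant library of all 3 pairs, against 24.7% of all genes, a count added after the data were seen. None of the 12 passed with the replicate number as a block either. Without control replicate 2 the median of the 12 was -0.21. The 6 common genes of V0 include the barely detected VhaM9.7-a, with a log2 fold change of 0.29 ± 0.32 (SE). The 5 common genes of the V1 sector had a median of -0.36 and the 6 of V0 a median of -0.16. These genes share their libraries, so their counts are not separate pieces of evidence. The 95% interval of the difference for Vha68-2, the catalytic subunit, ran from -0.58 to 0.26 on the log2 scale, and that for Vha16-1 from -0.78 to 0.26, so that a decrease of that size is not excluded for either gene.

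In rescue against control, VhaAC39-2 was again the 1 gene of 19 that passed, lower in the rescue, where 9.44% of all genes were called, 4.79% higher and 4.65% lower. Of the 12 common genes none passed with either tool and none had an unadjusted p under 0.05. Their median log2 fold change was -0.22, with 9 negative, against -0.03 over all genes. VhaM9.7-b, Vha36-1 and Vha14-1 had all rescue libraries below all control libraries, a pattern found in 15.8% of all genes, with log2 fold changes of -0.34 ± 0.17, -0.34 ± 0.16 and -0.23 ± 0.13 (SE; edgeR adjusted p of 0.222, 0.205 and 0.301). The median was -0.07 without rescue replicate 1 and -0.12 without control replicate 2, so that these 2 libraries carry much of it.

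In rescue against mutant, no Vha gene passed with edgeR or DESeq2, and none had an unadjusted edgeR p under 0.05. Few genes did so in this comparison, with 0.466% of all genes called, 0.188% higher and 0.278% lower. The 12 common genes had a median log2 fold change of 0.10, with 10 positive, and rescue and mutant libraries overlapped in all 19 genes, where 5.32% of all genes had every rescue library above every mutant library and 6.84% every one below. Vha16-1 had the largest of the 12 differences, 0.29 ± 0.23 (SE), with a 95% interval from -0.23 to 0.82 (edgeR adjusted p = 0.999). The median was 0.26 without rescue replicate 1 and -0.0039 without rescue replicate 3, and so had no stable direction.

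**Figure D3:**
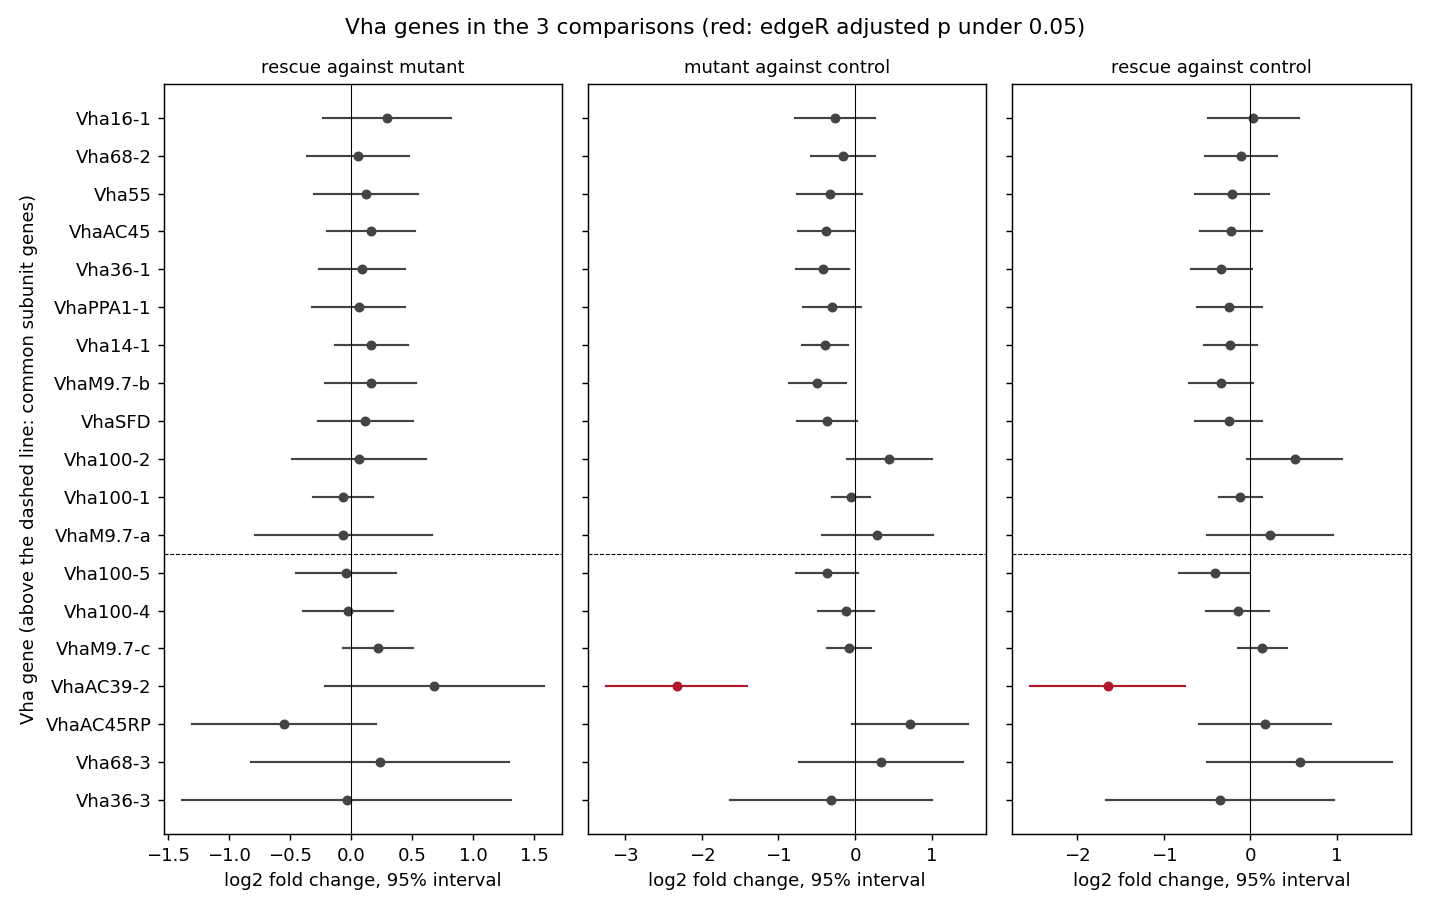
Log2 fold change with its 95% interval for the 19 tested Vha genes in rescue against mutant, mutant against control and rescue against control, with genes past an edgeR adjusted p of 0.05 in red. VhaAC39-2 is the only red gene, at -2.33 and -1.65 against control, and the scale of the horizontal axis differs between panels.

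Most of the common genes were high or low in the same libraries. As the difference of log2 CPM from each gene's mean over the 9 libraries, their median was -0.29, 0.04 and 0.15 in the rescue libraries, -0.22, 0.02 and -0.21 in the mutant libraries, and 0.09, 0.34 and 0.07 in the control libraries. Control replicate 2 was the highest library for 10 of the 12 genes, while rescue replicate 1 was the lowest for 6 and mutant replicate 1 for 4. The spread between rescue libraries, from -0.29 to 0.15, was therefore larger than the median difference of -0.22 between rescue and control.

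**Figure D4:**
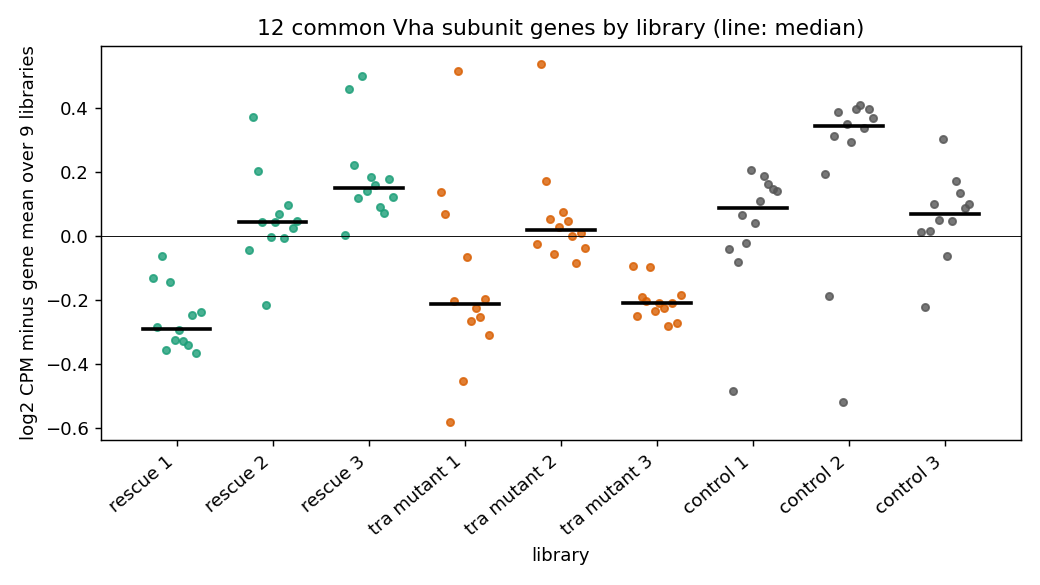
Log2 CPM minus the gene's mean over 9 libraries for the 12 common Vha genes, 1 point per gene, with a line at the median of each library. Control replicate 2 has the highest median, 0.34, rescue replicate 1 the lowest, -0.29, and the libraries of each group spread widely.

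VhaAC39-2 (FBgn0039058, chromosome arm 3R) encodes a paralog of subunit d, which joins the rotor to the ring. Its levels were 0.635, 1.32 and 1.55 CPM in rescue, 0.530, 1.14 and 0.507 CPM in mutant and 4.26, 3.18 and 3.52 CPM in control libraries, with means of 1.17 ± 0.477, 0.727 ± 0.362 and 3.65 ± 0.554 CPM (SD, n = 3 each) in that order. The counts behind them were 74, 110 and 134 in rescue, 52, 109 and 53 in mutant and 409, 299 and 394 in control libraries. Every control library lay at more than 3 CPM, above all other libraries, while rescue and mutant overlapped. The log2 fold change was -2.33 ± 0.41 (SE) in mutant against control (edgeR adjusted p = 0.0102) and -1.65 ± 0.40 in rescue against control (edgeR adjusted p = 0.0329). The summed counts gave a ratio of 0.197 for mutant over control, with a 95% counting interval of 0.169 to 0.228, and of 0.311 for rescue over control, with an interval of 0.273 to 0.352. These intervals cover counting error only. In rescue against mutant the log2 difference was 0.68 ± 0.40, with a 95% interval from -0.22 to 1.58 (edgeR adjusted p = 0.999). The mutant call was lost without mutant replicate 1 (edgeR adjusted p = 0.0522), over a range of 2.11e-07 to 0.0522 across the alternatives. The rescue call was lost without control replicate 1 (0.0656) and without rescue replicate 1 (0.0949), 2 (0.0871) or 3 (0.0601), over a range of 0.000545 to 0.0949. The common d gene VhaAC39-1 was not analysed here, so the share of the paralog in subunit d is not known, but its level was 1.499 CPM per kilobase against 801 for Vha68-2.

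**Figure D5:**
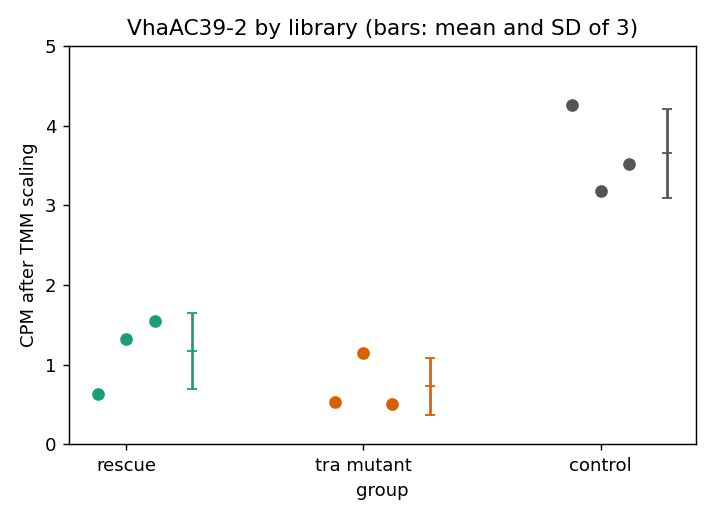
VhaAC39-2 in CPM after TMM scaling, 1 point per library, with the mean and SD of 3 beside the points. The control libraries lie between 3.18 and 4.26 CPM, above the rescue libraries at 0.635 to 1.55 CPM and the mutant libraries at 0.507 to 1.14 CPM.

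Markers of other tissues were read beside this gene. Of 5 testis markers, mia had 16.9 ± 1.56 CPM in rescue, 15.6 ± 2.25 CPM in mutant and 19.7 ± 6.39 CPM in control midguts and did not pass, while can, sa, dj and Mst87F were at or near 0 in all groups. The summed level of 4 fat body markers was 5.41 to 8.65 CPM in rescue, 3.96 to 5.19 CPM in mutant and 10.1 to 60.1 CPM in control libraries. Yp1 (a yolk protein) was the largest part of that sum in every control library. Yp1 and Lsp1gamma (a larval serum protein), 2 of the 4, were lower in both comparisons with control. Of all genes, 3.01% (mutant) and 4.65% (rescue) were called lower. Lsp1gamma lost its rescue call without any 1 of the rescue libraries and in the fit on the 6 libraries compared (edgeR adjusted p of 0.0531 to 0.0777). Of the other 2, apolpp had 14.5, 8.55 and 2.91 CPM in the control libraries and 3.59 to 6.29 CPM in the rescue and mutant libraries. DESeq2 called apolpp lower in mutant (DESeq2 adjusted p = 0.0499) but not in rescue against control (0.401). Its log2 fold changes were -1.14 ± 0.44 (SE) in mutant and -0.59 ± 0.44 in rescue against control (edgeR adjusted p of 0.150 and 0.423). Lsp2 had positive ones, 0.63 ± 0.91 in mutant and 2.82 ± 0.90 in rescue (edgeR adjusted p of 0.711 and 0.0782), the second called higher by DESeq2 (adjusted p = 0.00685). Yp1 had 44.9, 25.2 and 5.23 CPM in the control libraries and at most 0.367 CPM in the others. The part of fat body RNA in the VhaAC39-2 result was not tested. In bulk midguts, fewer cells of a type and less RNA per cell cannot be told apart.

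The remaining tissue-limited genes were near the limit of detection. VhaAC45RP, a paralog of VhaAC45, had 0.300, 0.564 and 0.498 CPM in rescue, 0.682, 0.798 and 0.507 CPM in mutant and 0.469, 0.351 and 0.384 CPM in control libraries. Every mutant library lay above every control library, as in 12.7% of all genes, with a log2 fold change of 0.72 ± 0.34 (SE; edgeR adjusted p = 0.227). Vha68-3, a paralog of subunit A, had 0.395, 0.480 and 0.625 CPM in rescue, 0.214, 0.598 and 0.459 CPM in mutant and 0.167, 0.446 and 0.393 CPM in control libraries. Vha36-3, a paralog of subunit D, had 0.206, 0.0719 and 0.0695 CPM in rescue, 0.122, 0.178 and 0.0669 CPM in mutant and 0.167, 0.202 and 0.0892 CPM in control libraries. Neither passed in any comparison, and their groups overlapped.

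Of the 9 genes that did not pass the filter, Vha100-3, Vha16-2 and Vha16-3 had no read in any library, which allows up to 3 counts, or 0.0277 to 0.0354 per 1000000 gene counts before scaling. Vha16-5, VhaPPA1-2, VhaM9.7-d, Vha36-2 and Vha14-2 had at most 10 counts in a library. Vha16-4, a paralog of the proteolipid gene, had no read in any rescue library, 5, 7 and 6 counts in the mutant libraries and 7, 5 and 2 counts in the control libraries. DESeq2, which kept it, called it lower in rescue against control (DESeq2 adjusted p = 0.0332), whereas edgeR without a filter did not. With so few reads, no fold is given.

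Genes that work with the pump were read from lists. Of 8 tested genes for its assembly and regulation, none passed in any comparison with edgeR or DESeq2, and none had an unadjusted edgeR p under 0.05. ATP6AP2, the other accessory protein of the pump, had 600 ± 91.4 CPM in rescue, 557 ± 41.9 CPM in mutant and 704 ± 59.3 CPM in control midguts (SD, n = 3 each), with a log2 fold change of -0.34 ± 0.16 (SE) in mutant against control (edgeR adjusted p = 0.217). Mitf, the transcription factor known to drive Vha genes in the fly, had 163 ± 3.62 CPM in rescue, 146 ± 36.6 CPM in mutant and 137 ± 23.4 CPM in control midguts, and Rbcn-3A, part of the complex that joins V1 to V0, had 293 ± 22.9, 296 ± 58.5 and 261 ± 37.8 CPM in the same order. Of 10 lysosomal genes, which act in the compartment the pump acidifies, none passed in any comparison with either tool and none had an unadjusted edgeR p under 0.05.

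Of 15 genes for ion and acid-base transport, 2 rose in mutant against control and 3 in rescue against control, and none fell. DESeq2 called 4 higher in each of these comparisons. By edgeR, 3.66% (mutant) and 4.79% (rescue) of all genes were called higher against control. DESeq2 called more genes in all, with 701 higher in mutant against control beside 369 with edgeR. CAH2, a carbonic anhydrase, had 779, 800 and 743 CPM in rescue, 688, 932 and 707 CPM in mutant and 358, 377 and 345 CPM in control libraries. Its log2 fold change was 1.11 ± 0.15 (SE) in mutant and 1.11 ± 0.15 in rescue against control (edgeR adjusted p of 0.00333 and 0.00285). Nhe2, a sodium/proton exchanger, had 521, 484 and 474 CPM in rescue, 518, 723 and 463 CPM in mutant and 258, 233 and 236 CPM in control libraries, with log2 fold changes of 1.23 ± 0.17 in mutant and 1.03 ± 0.17 in rescue against control (edgeR adjusted p of 0.00403 and 0.0076). For both genes every rescue and mutant library lay above every control library, and both calls held in all 17 alternatives. Over all genes, 12.7% had every mutant library above every control library, and 15.6% had every rescue library above them. nrv1, a beta subunit of the sodium/potassium pump, had 429, 620 and 555 CPM in rescue, 386, 610 and 416 CPM in mutant and 289, 297 and 231 CPM in control libraries. It rose in rescue against control by 0.97 ± 0.21 (edgeR adjusted p = 0.0238), a call lost without rescue replicate 2 (0.0816) or 3 (0.0792) over a range of 0.000337 to 0.0816, and had 0.79 ± 0.21 in mutant against control (edgeR adjusted p = 0.0575, and 0.0396 with the replicate number as a block). The 15 genes had a median log2 fold change of 0.33 in mutant and 0.38 in rescue against control, beside -0.32 and -0.22 for the 12 common Vha genes; the difference between the 2 lists was not tested. None of the 15 passed in rescue against mutant with edgeR or DESeq2 and none had an unadjusted p under 0.05.

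The Vha genes are strongly used in Malpighian tubules, which join the gut at the end of the midgut. Of 6 tested tubule markers, SecCl (a chloride channel) and Lkr (the leucokinin receptor) were higher in both comparisons with control, where 3.66% (mutant) and 4.79% (rescue) of all genes were called higher. Lkr lost its call in 10 and 7 of 16 alternatives, the replicate block among them (edgeR adjusted p of 0.0570 in mutant and 0.0516 in rescue against control). The summed level of the 7 matched markers was 90.2 to 106 CPM in rescue, 84.0 to 124 CPM in mutant and 37.8 to 51.4 CPM in control libraries and was nearly all SecCl, with averages of 87.6 ± 1.71 CPM in rescue, 81.1 ± 27.0 CPM in mutant and 35.4 ± 5.65 CPM in control midguts. CapaR, the receptor of the capa peptides, had negative log2 fold changes, -1.43 ± 0.58 (SE) in mutant and -0.77 ± 0.56 in rescue against control (edgeR adjusted p of 0.171 and 0.413). ZnT35C had 1.12 ± 0.38 and 0.40 ± 0.38 in the same order (edgeR adjusted p of 0.112 and 0.544). DESeq2 called ZnT35C higher in mutant against control (DESeq2 adjusted p = 0.0375). Alp4 had 1.08 ± 0.49 and 0.10 ± 0.48, and Irk3 0.21 ± 0.83 and 0.79 ± 0.83, and neither passed with edgeR or DESeq2. Uro, the defining tubule marker, was at or near 0, with 0 to 0.492 CPM in rescue, 0 to 0.0407 CPM in mutant and 0 to 0.271 CPM in control libraries. Of the 4 copper cell markers (lab, ct, dve and Ptx1) none passed in any comparison with edgeR or DESeq2, none had an unadjusted edgeR p under 0.05, and their summed level was 262 to 303 CPM in rescue, 288 to 290 CPM in mutant and 239 to 307 CPM in control libraries. Of the 4 enterocyte markers none passed by the same rules, with sums of 12500 to 18060 CPM in rescue, 13530 to 17680 CPM in mutant and 10680 to 20600 CPM in control libraries. The 4 visceral muscle markers summed to 724 to 1052 CPM in rescue, 671 to 899 CPM in mutant and 1020 to 1298 CPM in control libraries. None of these 4 passed with edgeR. Of them, 3 had an unadjusted edgeR p under 0.05 in mutant and 2 in rescue against control, all lower. By that rule 12.8% (mutant) and 14.7% (rescue) of all genes were lower. DESeq2 called 2 of the 4 lower in mutant and 1 in rescue against control. Over all genes, DESeq2 called 653 lower in mutant against control, beside 304 with edgeR. The part of these tissues in the levels of the Vha genes was not tested.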

How the data were processed

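Raw counts per gene, whole numbers that the authors deposited for each of 9 poly(A) midgut libraries (read in pairs of 100 bases, from 500 ng of RNA, with a stranded kit, per the labels' protocols), were used as given. TopHat2 2.0.11 and HTSeq on build dm3 are named in the submitters' processing notes; the strand setting is not given in the sources used here. Groups and replicate numbers came from sample titles. Lines naming no gene were left out; of all alignments, 14.6% to 22.9% had more than 1 place. Symbols came from the reference name table, which paired 15002 of 15682 identifiers; the other 680 took 4.84% to 5.60% of gene counts. Exon lengths, chromosome arms and overlaps came from the Ensembl annotation of BDGP6, a different build, so no coordinates are given.

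Genes kept by filterByExpr (10 counts, 15 in total) were tested in edgeR 4.0.16 (R 4.3.3) with TMM scaling and a quasi-likelihood fit of 1 mean per group over all 9 libraries, and Benjamini-Hochberg adjustment over 10088 genes at 0.05. The common biological coefficient of variation was 0.246. The steps were tested on simulated data. For single values, scipy 1.17.1 gave exact permutation tests, two-sided. The alternatives were RLE and upper-quartile factors, library totals, no filter, 1 CPM in 3 libraries, DESeq2 1.42.0, a replicate block, the 6 libraries compared, and each library left out. Between replicates, chi-square per degree of freedom was 128.4 to 1055, well above counting noise.

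The members, the gene lists and the tests were chosen with earlier results of these data known. Every Vha gene is accounted for, and list genes are named where they passed (at most 5 a list, by smallest p), as defining markers, or, for assembly and regulation, as chosen after their values were seen. Replicate numbers were read as pairs for mutant and control, because deviations from the group means of libraries with the same number had r of 0.204, 0.176 and 0.170. In rescue and mutant they had 0.096, 0.073 and -0.237, and in rescue and control 0.024, 0.251 and 0.030. Mutant and control libraries of unlike number had r of -0.163 to -0.0036, but rescue replicate 3 and control replicate 1 had 0.167. Because deviations from a group mean cancel within the group, a positive r with a library forces negative values among the rest. The contrast of like and unlike numbers is therefore partly fixed in advance. The labels do not state pairs, and the choice was made from these data, so the pairing is not established.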

Additional observations from a re-analysis of the deposited data

How the results depend on the processing

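VhaAC39-2 kept its direction in both comparisons with control under all 17 alternatives, from -2.81 to -2.11 in mutant and -1.91 to -1.32 in rescue on the log2 scale. The number of Vha genes called lower was 0 to 1 over the fits that left out 1 library, in mutant against control and in rescue against control alike, and 2 in rescue against control with DESeq2, which added Vha16-4. With the replicate block, VhaAC39-2 had an adjusted p of 0.0142 in mutant and 0.0359 in rescue against control, and the pairing changed no call of a Vha gene. VhaAC39-2 lost its call in 1 of 17 alternatives in mutant and in 4 of 17 in rescue against control, all of them fits without 1 library, and no other tested Vha gene gained a call under any alternative. The median of the common genes in mutant against control ranged from -0.44 to -0.21 over left-out libraries and from -0.34 to -0.31 otherwise; in rescue against control from -0.29 to -0.07 and from -0.25 to -0.195; in rescue against mutant from -0.0039 to 0.26 and from 0.09 to 0.13. The median over all genes lay within -0.06 to 0.02 under every alternative run. The count of all genes called depended far more on the fit: mutant against control gave 369 higher and 304 lower, with 239 to 701 and 177 to 653 over the alternatives that kept all libraries and 200 to 406 and 114 to 352 over left-out libraries. Rescue against control gave 483 and 469, with 294 to 822 and 200 to 885, and 221 to 466 and 139 to 508. Rescue against mutant gave 19 and 28, with 15 to 60 and 18 to 62, and 7 to 28 and 11 to 43.

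The shares of the a-subunit genes without division by length gave differences from control of 9.92 (mutant) and 11.5 (rescue) percentage points for Vha100-2 and -9.37 and -10.4 for Vha100-5. Over left-out libraries the differences were 6.14 to 12.1 and 9.10 to 13.6 for Vha100-2 and -11.3 to -7.13 and -12.2 to -8.52 for Vha100-5. Both alternatives were chosen after seeing the data. The ion transport genes called higher numbered 2 to 4 in mutant and 2 to 5 in rescue against control over all alternatives, and the tubule markers 1 to 3 and 1 to 2. Ion transport genes called lower in rescue against control numbered 0 to 1 over left-out libraries.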

Other observations

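Tk, a gut peptide hormone gene of enteroendocrine cells, had 183, 191 and 211 CPM in rescue, 166, 184 and 176 CPM in mutant and 97.8, 114.8 and 84.3 CPM in control libraries, and rose in both comparisons with control under all 17 alternatives. pros, the transcription factor of that lineage, rose in rescue against control, a call lost without rescue replicate 1 or 3 and in the fit on the 6 libraries compared. In the same list, AstC had log2 fold changes of 0.32 ± 0.14 (SE) in mutant and 0.30 ± 0.14 in rescue against control (edgeR adjusted p of 0.209 and 0.208). NPF had negative ones, -0.30 ± 0.18 and -0.14 ± 0.18 (edgeR adjusted p of 0.333 and 0.662). Over all genes, 3.66% were called higher in mutant and 4.79% in rescue against control. In the neuron list brp rose in both comparisons with control and Syt1 in rescue against control. elav and nSyb, also in that list, did not pass. elav had log2 fold changes of 0.23 ± 0.17 (SE) in mutant and 0.52 ± 0.17 in rescue against control (edgeR adjusted p of 0.436 and 0.0827). nSyb had -0.06 ± 0.12 and 0.13 ± 0.12 in the same order (edgeR adjusted p of 0.814 and 0.546). The mutant call of brp was lost without mutant replicate 1 or 2 and in the fit on the 6 libraries compared, and the call of Syt1 without rescue replicate 1 or 3. Of 2 tested hindgut markers dan rose in both comparisons with control, with 1.14 ± 0.330 CPM in rescue, 2.13 ± 0.433 CPM in mutant and 0.248 ± 0.0183 CPM in control midguts (SD, n = 3 each). The other, byn, went the other way without passing. Its log2 fold changes were -1.25 ± 0.85 (SE) in mutant and -1.81 ± 0.88 in rescue against control (edgeR adjusted p of 0.402 and 0.217). Of 3 tracheal and haemocyte markers trh fell in mutant against control, where 3.01% of all genes were called lower. The call of trh was lost without any 1 of the mutant libraries, without control replicate 2, without rescue replicate 3 and in the fit on the 6 libraries compared. Hml and NimC1 had -2.09 ± 0.74 (SE) and -2.26 ± 0.67 in mutant against control (edgeR adjusted p of 0.121 and 0.0769). DESeq2 called NimC1 lower there (DESeq2 adjusted p = 0.00473). All 3 had an unadjusted edgeR p under 0.05 in mutant against control, against 12.8% of all genes lower by that rule. In rescue against control, DESeq2 called trh alone lower (DESeq2 adjusted p = 0.0093). Of the 2 progenitor markers matched and tested none passed with edgeR or DESeq2 and none had an unadjusted edgeR p under 0.05; the other 2 listed were not analysed here. No gene of any of these lists passed in rescue against mutant.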
